A study of Drosophila melanogaster with 3 samples.

Results

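The fruit fly Drosophila melanogaster makes a zinc finger protein of the C2H2 kind called Aef1, for adult enhancer factor 1. Of all the places where peaks of the tagged protein were called in embryos, 327 regions lay between the genes of the autosomes, away from any protein-coding transcript start, and they are described here. Chromatin immunoprecipitation and sequencing had been run on whole embryos of 0 to 24 h from transgenic flies that make Aef1 fused to enhanced green fluorescent protein (Aef1-eGFP), pulled down with an antibody to GFP after sonication. The 3 biological replicates form 1 group, and the replicate numbers are those of the labels. The whole embryo was used, so the cells in which a region was occupied are not known, nor are the promoter and the copy number of the transgene, which the labels do not give. Input chromatin and embryos without the tag were not analysed here, so no background from a control stands beside the values.

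The regions were chosen by measured values, namely the authors' peak calls. Peaks of the 3 replicates that shared at least 1 bp were merged, which gave 4290 regions, and 2969 of these held peaks from 2 or more replicates. On the autosomes 2359 such regions remained. As the summit of a region stands the median over replicates of the summit of its strongest peak. Of the 2359, 1304 had the summit within 500 bp of a protein-coding transcript start (promoter regions), 728 had it inside a protein-coding gene but farther from any start (genic regions), and 327 had it outside every protein-coding gene and over 500 bp from a start (intergenic regions). Peak strength, width and number of replicates decided membership and are given below as descriptions with no test. Sequence, distance beyond 500 bp, neighbouring genes and their orientation were not used to choose them.

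Sequence between genes in the fly holds many enhancers, which act on promoters at a distance, and insulators, which bound the reach of an enhancer. Aef1 was first described as a repressor that binds CAACAA repeats in enhancers of the alcohol dehydrogenase and yolk protein genes, where its site meets that of C/EBP. CTCF and Su(Hw), both zinc finger proteins, are known for binding insulators, and each has a word of its own by which its sites are recognised.

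Several kinds of sequence found at the summits are shown first, because the account of the words below turns on them. Each is the window from 50 bp before to 50 bp after a summit, dm6, plus strand, 5′ to 3′, and is named by the genes on either side of it. The best-ranked intergenic region, upstream of taranis (tara), and a strong one upstream of chinmo held no CAACAA within 50 bp of the summit, so no letter is in capitals. Capitals would have marked CAACAA or its complement TTGTTG.
mtSSB and tara, best-ranked region, chr3R:16222440-16222540: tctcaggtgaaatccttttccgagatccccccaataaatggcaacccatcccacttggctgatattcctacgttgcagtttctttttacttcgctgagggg
RFeSP and chinmo, chr2L:1632786-1632886: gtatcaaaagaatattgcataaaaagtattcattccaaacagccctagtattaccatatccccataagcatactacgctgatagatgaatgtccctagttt
A second region upstream of tara, with its summit in the same gap, held 5 copies of CAACAA.
mtSSB and tara, second region, chr3R:16221714-16221814: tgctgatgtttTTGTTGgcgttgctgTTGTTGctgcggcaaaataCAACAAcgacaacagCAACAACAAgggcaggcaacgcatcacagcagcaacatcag

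The next set shows further regions with the tandem word CAACAACAA, with every CAACAA on either strand in capitals. All but the scylla (scyl) region are from the 10 best-ranked with that word. The scyl region, a weak one, is shown for its run of 7 copies of CAA, which no other intergenic region in these windows exceeded.
NimC3 and hll, chr2L:14024092-14024192: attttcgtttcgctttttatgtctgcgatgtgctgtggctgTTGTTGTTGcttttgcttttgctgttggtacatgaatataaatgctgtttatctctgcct
NijA and CG43245, chr3L:10737592-10737692: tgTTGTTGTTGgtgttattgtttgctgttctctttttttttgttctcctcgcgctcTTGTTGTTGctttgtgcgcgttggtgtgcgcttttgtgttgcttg
Ir68a and scyl, chr3L:11246433-11246533: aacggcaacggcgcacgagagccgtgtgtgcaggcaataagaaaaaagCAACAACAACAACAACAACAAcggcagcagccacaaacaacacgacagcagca
Between elB and Pburs the tandem word stood beside ACAGTG, and there the capitals mark both words.
elB and Pburs, chr2L:14410382-14410482: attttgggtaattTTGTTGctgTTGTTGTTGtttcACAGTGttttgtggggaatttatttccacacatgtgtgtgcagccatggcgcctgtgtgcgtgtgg

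The last set shows matches to the CTCF core AGNNGGCGC, in capitals on either strand, and 1 match to the Su(Hw) core GCATACTTT, which reads AAAGTATGC on the other strand. The window upstream of soti held 3 matches to the CTCF core.
soti and cv-c, CTCF core, chr3R:14391376-14391476: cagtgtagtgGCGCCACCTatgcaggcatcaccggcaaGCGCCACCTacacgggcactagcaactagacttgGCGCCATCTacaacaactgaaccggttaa
Sox21a and Sox21b, CTCF core, chr3L:14111554-14111654: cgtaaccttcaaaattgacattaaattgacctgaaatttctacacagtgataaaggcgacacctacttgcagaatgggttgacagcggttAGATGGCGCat
bab2 and CG13912, CTCF core, chr3L:1178205-1178305: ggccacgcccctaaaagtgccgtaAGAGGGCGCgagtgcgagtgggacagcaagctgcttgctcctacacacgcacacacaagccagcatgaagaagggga
Sid and snu, CTCF core, chr3R:28672351-28672451: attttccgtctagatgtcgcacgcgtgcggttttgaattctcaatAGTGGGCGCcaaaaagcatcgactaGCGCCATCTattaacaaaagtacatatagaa
ninaE and CG4733, Su(Hw) core, chr3R:19889718-19889818: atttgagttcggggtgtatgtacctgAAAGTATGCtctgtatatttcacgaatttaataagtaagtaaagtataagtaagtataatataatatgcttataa

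How strongly and how often the intergenic regions were called was asked first. They made up 8.96%, 9.15% and 9.21% of the peaks' lists of replicates 1, 2 and 3 (313 of 3495, 286 of 3126 and 271 of 2942), a nearly constant share. Of the 327 regions, 216 (66.1%) held a peak in all 3 replicates, beside 72.5% of the promoter regions and 67.3% of the genic regions. Over all 2359 autosomal regions, the intergenic ones included, 70% did. The remaining 111 held peaks in 2 replicates. The missing list was that of replicate 3 for 56 of them, that of replicate 2 for 41 and that of replicate 1 for 14.

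The irreproducible discovery rate (IDR) is the rate by which the authors cut their lists, and it measures how well a peak's rank repeats between a pair of peak calls. In the longer ranked lists that the authors deposited before that threshold, 103 of the 111 regions did have a peak in the replicate that missed them. The IDR of those peaks ran from 0.0101 to 0.820 with a median of 0.0747. Their signal had a median of 48.2, 35.8 and 36.0 in replicates 1, 2 and 3, below the medians of the intergenic peaks in the thresholded lists, and reached 75.1, 52.2 and 48.9, above the lowest of those peaks. The 8 regions with no peak at all in the missing replicate included one in the gap between Ids and sty and one between hng3 and CG13898, which both held other regions found in 3 replicates.

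The authors' peak signal, on a scale of their peak caller that the sources used here do not state, was compared only within a list. In replicate 1 the intergenic peaks had a lowest, median and highest signal of 24.3, 79.1 and 798, where the whole list had a median of 72.8 and a highest of 1765. In replicate 2 they had 28.9, 71.3 and 730, with 65.2 and 1472 for the list. In replicate 3 they had 23.6, 67.5 and 590, with 65.9 and 1405 for the list. The strongest intergenic peak stood at place 13, 13 and 18 in the lists of replicates 1, 2 and 3. By their median signal the regions sat near the middle of each list. Their median place was 44.5%, 44.2% and 47.7% of the way down from the strongest peak in replicates 1, 2 and 3, while promoter regions had 37.9%, 41.5% and 39.6% and genic regions 42.9%, 47.0% and 50.4%. In the strongest 10% of the lists stood 32, 28 and 25 intergenic regions, which is 10.2%, 9.79% and 9.23% of those in each list.

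Among the 216 regions with a peak in all 3 replicates, the order by signal repeated. Spearman's rho across regions was 0.850 for replicates 1 and 2. For replicates 1 and 3 it was 0.816, and for replicates 2 and 3 it was 0.822. These are correlations across regions that had passed the same threshold in every list, and regions are not independent replicates. The summits repeated too: for each pair of replicates 90.3% to 91.2% of these regions had their summits within 50 bp of each other. Merged regions were 139 to 658 bp wide, with a median of 329 bp.

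The 12 best-ranked regions that held peaks in all 3 replicates are given with their signals, and what is known of a neighbouring gene is background. The best ranked lay 3161 bp upstream of tara, a gene of the trithorax group known for roles in transcription and sleep, and had a signal of 683, 730 and 583 in replicates 1, 2 and 3. The region between Su(z)2 and CG13323 had 798, 545 and 590. Su(z)2 encodes a Polycomb group protein, as does its neighbour Psc, whose upstream region 4212 bp from its start had 519, 358 and 306. In these 3 regions every replicate stood above 300, and the replicates differed more at Psc and Su(z)2, where replicate 1 was highest, than at tara.

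Upstream of chinmo, which encodes a BTB zinc finger factor known for setting the temporal identity of neurons, 2 regions were among the 12. The one 18422 bp from the chinmo start had 438, 399 and 375 in replicates 1, 2 and 3. The one 12462 bp from it had 409, 407 and 339. Both were highest in replicate 1 and lowest in replicate 3, with close values. The region 5723 bp upstream of eEF1gamma, a subunit of the translation elongation factor 1 complex, had 474, 313 and 271, a wider spread.

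The remaining 6 of the 12 ranked lower. Between C15, a homeobox gene, and sp3 the signal was 378, 294 and 288 in replicates 1, 2 and 3. Between vein (vn), which encodes a ligand of the EGF receptor, and CG5568 it was 286, 309 and 364. This was the only one of the 12 in which replicate 3 was highest. Between betaTub60D and slbo, the gene of the fly C/EBP, it was 324, 280 and 253. At blw and CycB, the cyclin B gene, it was 344, 220 and 231. Upstream of foxo, the forkhead factor of insulin signalling, it was 300.4, 249 and 227, and between hng3 and CG13898 it was 294, 271 and 206. Of these 12 regions, 2 held CAACAA within 50 bp of the summit, those at eEF1gamma and at hng3, each with 1 copy. Of all 327 regions, 62 (19.0%) held it, and so small a count does not set the 12 apart.

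**Figure D1:**
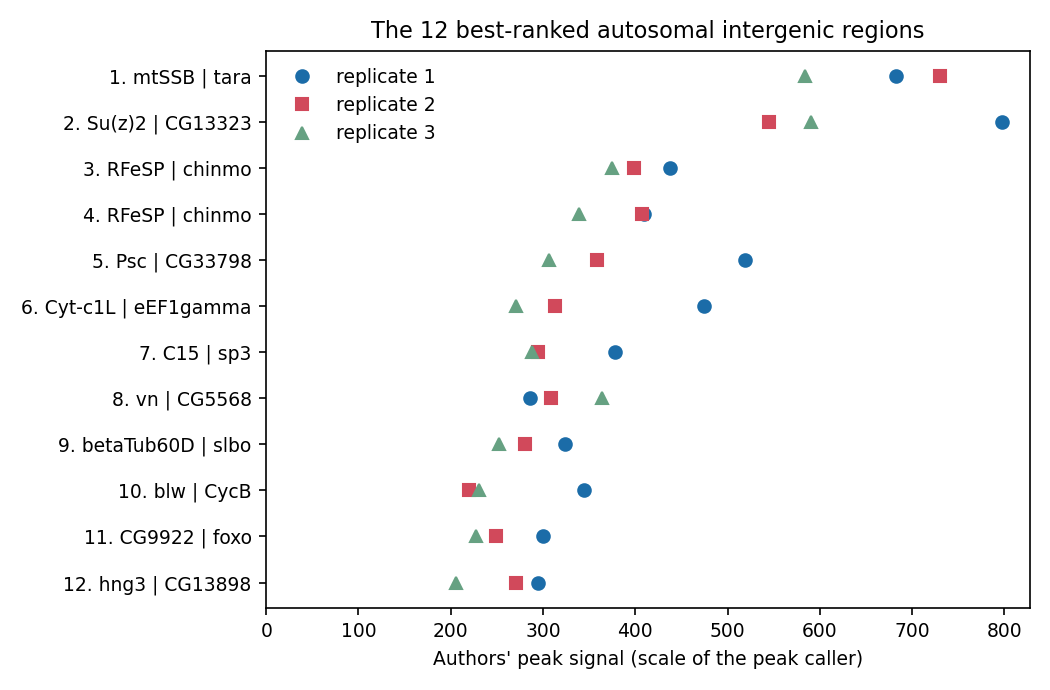
The authors' peak signal (x axis, linear, on the scale of their peak caller) of the 12 autosomal intergenic regions with the best mean rank among those with a peak in 3 replicates, 1 symbol per replicate, named by the genes to the left and right. The regions at tara and Su(z)2 stand apart above 500 in every replicate, and the others reach at most 519.

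Where the regions lay along the arms was set against the eligible sequence, that is all 33.8 Mb of autosomal sequence outside protein-coding genes and over 500 bp from their starts. This comparison is a description and was not tested. Arm 2L held 94 regions (28.7%, 95% interval 23.9% to 34.0%) with 22.0% of the eligible sequence. Arm 3L held 98 (95% interval 25.1% to 35.3%, with 28.8% of the sequence), arm 2R 71 (21.7%, with 23.4%), arm 3R 62 (19.0%, with 24.9%) and arm 4 2 (0.612%, with 0.880%). Of the 94 regions on 2L, 13 lay in 1 gap, and without replicate 1 the share of 2L was 25.1%.

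The summits lay closer to transcript starts than eligible bases do, a comparison made without a test. Their median distance to the nearest protein-coding transcript start was 3838 bp (quartiles 1611 and 9198.5 bp), against 8495 bp for eligible bases and 7934 bp for eligible bases outside annotated transposons. Within 2000 bp of a start lay 30.9% of the 327 regions and 14.9% of eligible bases. Within 10000 bp lay 253 regions (77.4%) and 54.6% of eligible bases. Since the rule kept all regions over 500 bp away, the difference concerns the spread beyond that limit. In an annotated transposon lay 2 regions (0.612%) and 10.3% of eligible bases, and the part of repeats in these shares was not tested.

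**Figure D2:**
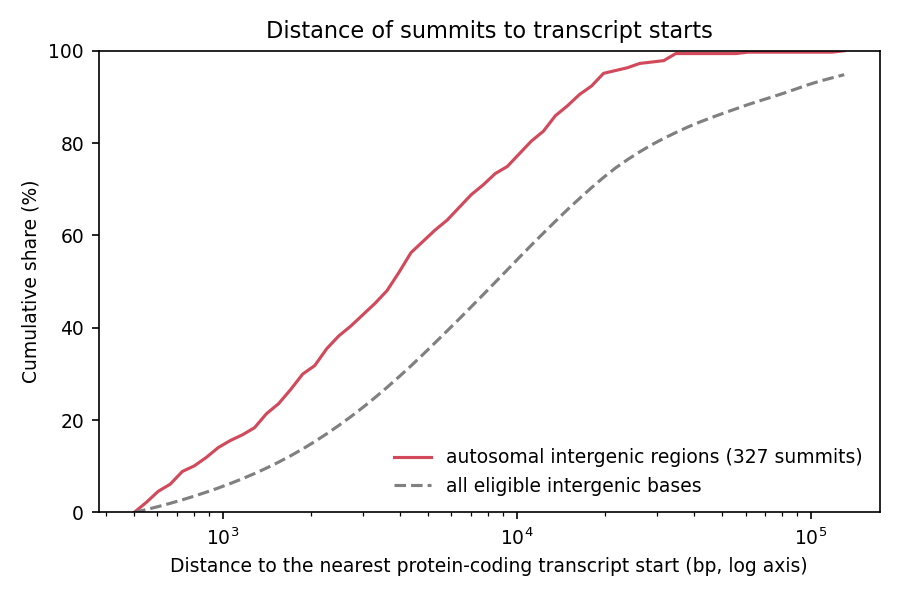
Cumulative share (y axis, %) of the 327 summits (solid line) and of all eligible intergenic bases (dashed line) by distance to the nearest protein-coding transcript start (x axis, bp, log axis). The line of the summits runs above that of the bases at each distance marked, with 30.9% against 14.9% at 2000 bp.

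Gaps between genes that face away from each other (divergent) held more of the regions than of the eligible sequence. They held 121 regions (37.0%, 95% interval 31.8% to 42.5%) and 23.3% of the bases. Gaps between genes on the same strand held 143 regions (43.7%) and 49.7% of the bases, and gaps between convergent genes 61 (18.7%) and 23.0%. Upstream of their nearest gene lay 217 regions (66.4%), with 59.2% of the eligible bases. The gene nearest to the summit also had an Aef1-eGFP promoter region of its own for 56 regions (17.1%, 95% interval 13.2% to 21.7%), against 5.42% of the eligible bases. Distance to a start and the kind of gap are linked, so these shares are not separate results.

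Non-coding genes were not part of the rule, and 33 regions (10.1%) had the summit within one, against 5.89% of the eligible bases. By their annotated names 32 of the 33 lay in long non-coding RNA genes. The best ranked were 2 regions in lncRNA:CR44810 between betaTub60D and slbo, and the second of them had a signal of 320.0, 258 and 192 in replicates 1, 2 and 3. In lncRNA:CR44676, between CG9300 and the potassium channel gene Shal, the signal was 229, 173 and 119.6. In lncRNA:CR44363, between CG44362 and CG7560, it was 229, 139 and 106. In these 3 regions replicate 1 was highest and replicate 3 lowest. Others among the best ranked lay in lncRNA:CR44603 upstream of chinmo, in lncRNA:CR44917 and lncRNA:CR44919 beside tsh, and in lncRNA:CR45251 between CG6168 and CG6163. Counting only the regions outside non-coding genes and their starts left 269.

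Some gaps held several regions. The 327 regions fell into 225 gaps, of which 49 held 2 or more and together 151 of the 327, and 77 regions had another within 2000 bp. Longer gaps leave more room for regions, and no number expected from gap length was computed. The gap of 37097 bp between RFeSP, the Rieske subunit of mitochondrial complex III, and chinmo held 13 regions over 34269 bp. Of these, 8 had peaks in all 3 replicates, beside 216 (66.1%) of all 327. CAACAA stood within 50 bp of the summit in 1 of the 13, beside 62 (19.0%) of all 327, and counts this small do not set a gap apart. The gap of 27292 bp between CG44362 and CG7560 held 7, none with CAACAA, and the gap of 75047 bp between NijA and CG43245 held 6. In the NijA gap all 6 lay within 15103 bp, in the part of the gap farther from NijA. Another 3 gaps held 5 regions each, hng3 to CG13898, CG6168 to CG6163, and Ids to sprouty (sty), the gene of an inhibitor of receptor tyrosine kinase signalling.

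**Figure D3:**
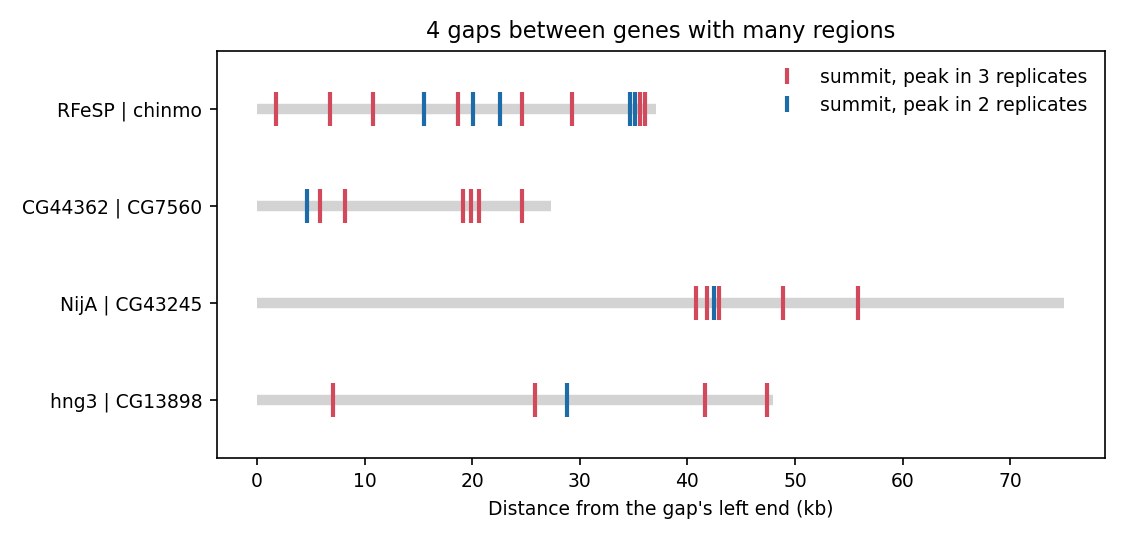
Summits (vertical strokes) of the autosomal intergenic regions in 4 gaps between protein-coding genes that held many of them, by distance from the left end of the gap (x axis, kb), each gap drawn to scale as a grey bar and named by its left and right genes. The RFeSP and chinmo gap holds 13 summits spread along its length, and the 6 of the NijA gap sit together.

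The 5 regions farthest from any start lay 33190 to 126327 bp away. The farthest, between CG41242 and RYa in a gap of 282943 bp, was weak, with a signal of 43.9 and 30.9 in replicates 2 and 3. The next lay 59565 bp from the start of Cyp12e1 on the side of homothorax (hth), with 36.0 and 65.2 in replicates 1 and 2. A pair of regions in the NijA gap and one 33847 bp from vvl, a POU homeobox gene, made up the rest, and the signal at vvl was 133, 103 and 107 in replicates 1, 2 and 3. The members nearest the 500 bp limit lay 505 bp from nan, 506 bp from CG10479 and 515 bp from mirr. The regions just inside the limit, 496 bp from CG6602, 496 bp from CG31176 and 494 bp from CG3348, counted as promoter regions. On the intergenic side the signal was 63.1, 58.0 and 53.9 at nan and 256, 217 and 215 at CG10479 in replicates 1, 2 and 3, and 38.3 and 54.9 at mirr in replicates 1 and 3. On the promoter side it was 88.2 and 52.1 at CG6602 and 55.6 and 48.7 at CG31176 in replicates 1 and 2, and 90.8, 73.1 and 65.5 at CG3348 in replicates 1, 2 and 3. In replicate 1 the promoter-side values fall within the range of the intergenic side.

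Genes of 7 lists were looked up among the genes nearest to the summits, and each count is set beside the share of eligible bases nearest to the same genes, with no test. Transcription factors of patterning and homeobox genes were nearest to 21 regions, which is 6.42% (95% interval 4.02% to 9.65%), with 3.68% of the bases. These were 19 of the 91 autosomal genes on the list. The best ranked lay at spalt major (salm), a zinc finger factor of the wing and trachea, 2209 bp upstream of its start. This region had a signal of 151, 109 and 151 in replicates 1, 2 and 3. It was followed by Doc2, a T-box gene of heart and amnioserosa, with 173, 127 and 109, by slp2, a forkhead gene of segmentation, with 154, 152 and 85.2, and by the region at vvl given above. The lowest value of these 4 regions in any replicate was that 85.2.

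Secreted signalling ligands were nearest to 5 regions (1.53%, with 0.603% of the bases). These were Wnt4, Wnt6, Sema5c and dpp, the fly BMP ligand, which had 2. The region 13209 bp from the dpp start had a signal of 58.2, 64.9 and 58.6 in replicates 1, 2 and 3, and that at Wnt4 had 61.2, 94.5 and 57.6. Genes of the fat body and those reported as Aef1 targets were nearest to 4 regions (1.22%, 95% interval 0.334% to 3.10%, with 0.163% of the bases), and all 4 belonged to slbo. C/EBP is known to share a binding site with Aef1 in the enhancer of the alcohol dehydrogenase gene. Of the slbo regions, only the one 834 bp upstream of its start held CAACAA within 50 bp of the summit. Of all 327 regions, 62 (19.0%) held it. The other 16 autosomal genes of that list had no region.

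Cell adhesion and axon guidance genes were nearest to 5 regions (1.53%, with 2.21% of the bases), those of dpr20, unc-5, 18w, Tollo and robo2. Ion channels and receptors of neurons had 1, at the serotonin receptor gene 5-HT7, and cuticle protein genes 2, at Cpr76Ba and Cpr65Eb. Genes of cytoplasmic ribosomal proteins had 0 of the 327, which allows a share of up to 0.917% as 3 counts and up to 1.12% by the exact interval, and 1.03% of the eligible bases are nearest to them. The counts of all 7 lists are small, and the lists were chosen with earlier results of these data known. The exact intervals count regions as independent and were not adjusted over the 7 lists, so they do not serve as a test. All 4 regions of the fat body list lay at 1 gene, slbo.

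The sequence at the summits was compared with the flanks, windows of the same length centred 500 bp to either side, by exact McNemar tests. The larger p of the 2 flanks was kept, both strands were searched, and p-values were adjusted over 21 words by the Benjamini-Hochberg method. Regions were counted as independent, although neighbours in 1 gap may share sequence. None of the 21 words passed an adjusted p of 0.05 in the intergenic regions, and 3 had an unadjusted p under 0.05. In the 2359 autosomal regions, the intergenic ones included, 13 of the 21 (61.9%) passed, from a larger set. Among the 13 were CAACAA, CAACAACAA and ACAGTG, with ratios of 1.39, 2.58 and 1.87, beside 1.38, 2.35 and 2.17 in the intergenic regions. The CTCF core, also among the 13, had 1.93 beside 5.33. TATCGATA had 4.42, with 40 of its 42 summits in promoter regions, beside 0.5, which rests on 1 intergenic summit. CAGGTAG, CACACACA and GCCAT, among the 13 too, were lower at the summits, with ratios of 0.324, 0.447 and 0.710. In the intergenic regions they had 4, from 2 summits, 0.696 and 0.982. Missing the threshold in the smaller set does not show that a word is as frequent in the flanks as at the summits.

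CAACAA stood at 62 of the 327 summits (19.0%, 95% interval 14.9% to 23.6%), against 13.8% of the flanks, a ratio of 1.38 (exact McNemar p = 0.189, adjusted p = 0.496). Of all eligible windows of that length 11.0% held it. The tandem CAACAACAA stood at 20 summits (6.12%, 95% interval 3.78% to 9.29%), against 2.60% of the flanks, a ratio of 2.35 (exact McNemar p = 0.0614, adjusted p = 0.322), and in 0.851% of eligible windows. The permuted controls AACCAA and CAAACA had ratios of 0.980 and 0.795. The interval of the tandem word's share lay above its share in eligible windows, while the difference from its own flanks did not pass the test. With flanks 1000 bp away the tandem's ratio was 4, with an unadjusted p of 0.0146 by the same exact test.

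**Figure D4:**
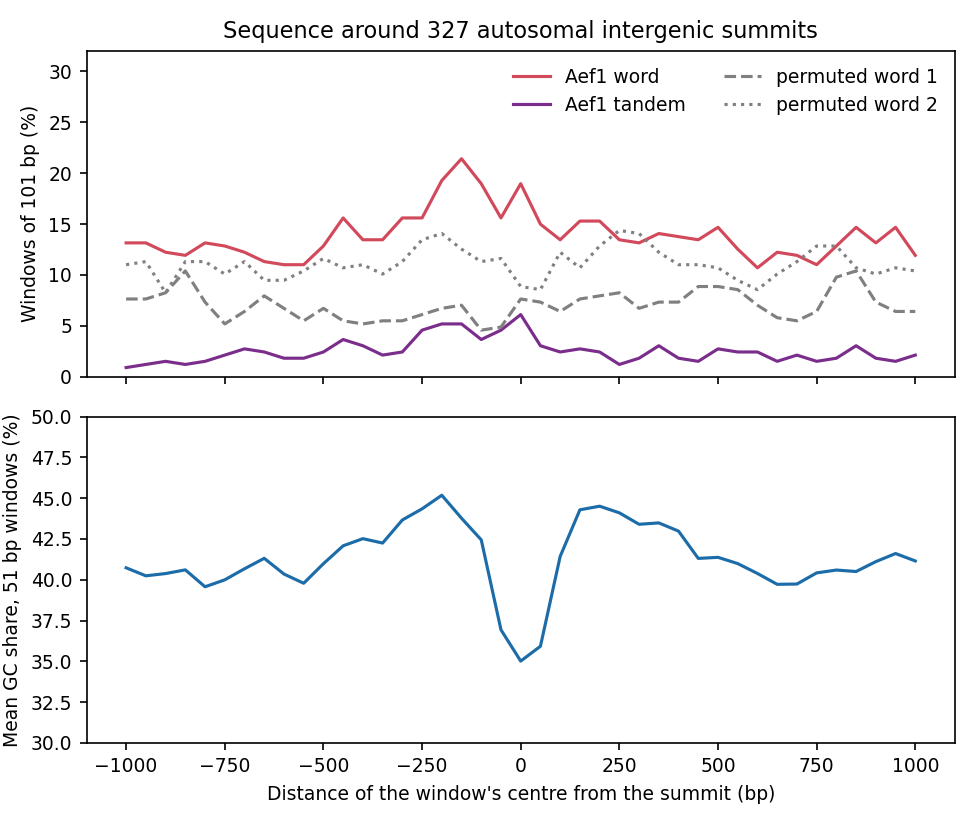
Share of the 327 regions with each word in a window of 50 bp to either side (upper panel, y axis, %) and mean GC share of 51 bp windows (lower panel, y axis, %, not starting at 0) by distance of the window's centre from the summit (x axis, bp, plus strand). CAACAA reached 21.4% at 150 bp to the left and 19.0% at the summit, its tandem peaked at the summit with 6.12%, and the GC share dipped to 35.0% there.

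Each replicate's own peaks gave values that differed between replicates. CAACAA was at 19.2% of the summits and in 13.1% of the flanks in replicate 1, at 13.6% and in 14.2% in replicate 2, and at 19.9% and in 14.2% in replicate 3. Replicates 1 and 3 had more at the summit and replicate 2 had slightly less. The mean difference was 3.76 ± 3.71 percentage points (SD, n = 3, two-sided exact sign-flip p = 0.5, with 0.25 the smallest possible). For the tandem word it was 2.77 ± 1.64 points, positive in all 3 replicates (exact sign-flip p = 0.25).

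Replicate 2 also stood apart in which regions it missed. Of the 41 intergenic regions without a peak in the list of replicate 2, 16 held CAACAA (39.0%, 95% interval 24.2% to 55.5%), against 37 of the 216 found in all 3 replicates (17.1%, 12.4% to 22.8%). Of the 56 missed by replicate 3, 7 held it (12.5%), as did 2 of the 14 missed by replicate 1. The tandem word was at 7 of the 41 missed by replicate 2 (17.1%), 3 of the 56 missed by replicate 3 (5.36%), 1 of the 14 missed by replicate 1 (7.14%) and 9 of the 216 (4.17%). Over all 2359 autosomal regions CAACAA was at 30.4% of the 230 missed by replicate 2 and 17.6% of the 1651 found in all 3. The number of replicates is a value that chose the regions, so these shares are given with no test, and the cause was not tested.

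Of the 20 regions with the tandem word, 3 (15%) stood in the strongest 10% of any list, beside 38 (11.6%) of all 327. Their median place, averaged over the lists that held a region, was 62.7% of the way down, beside 51.7% for all 327. The second region at tara had a signal of 172, 173 and 242 in replicates 1, 2 and 3, with 5 copies of CAACAA in the window printed above. That between NimC3, a phagocytosis receptor gene, and hll had 201, 177 and 166. The region at Su(z)2 had 148, 157 and 174. The signal was lower at the next ones. At elB, a zinc finger gene of the trachea, it was 102, 82.9 and 88.8, and a region in the NijA gap had 82.7, 77.4 and 94.9. After these by rank came CG42808 with 82.9, 66.2 and 100.7, and escargot (esg), a Snail family factor, with 87.2, 71.4 and 68.8. The scyl region with the run of 7 CAA copies, upstream of an inhibitor of TOR signalling, had 52.3, 51.8 and 41.8, below the list's median in every replicate. Peaks in all 3 replicates were held by 9 of the 20.

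The share of regions with these words did not differ between intergenic and other autosomal regions by more than counting error. CAACAA was at 19.0% of the intergenic, 19.2% of the promoter and 15.8% of the genic summits. The difference from promoter regions was -0.21 percentage points (Fisher's exact test, adjusted p = 1 over 4 comparisons) and that from genic regions 3.16 points (adjusted p = 0.429). The tandem word was at 6.12%, 5.98% and 4.26%, with differences of 0.13 points from promoter regions (Fisher's exact test, adjusted p = 1) and 1.86 points from genic regions (adjusted p = 0.429). A test that misses the threshold does not show the shares to be equal, and the 95% intervals, 14.9% to 23.6% for intergenic and 13.2% to 18.7% for genic summits, leave room for a difference of several points.

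CTCF's core word AGNNGGCGC had the highest ratio to the flanks among those of the 21 words found at 10 or more summits. It stood at 16 of the 327 (4.89%, 95% interval 2.82% to 7.82%), against 0.917% of the flanks, a ratio of 5.33 (exact McNemar p = 0.00443, adjusted p = 0.0929). Of eligible windows 0.631% held it, of promoter summits 1.76% and of genic summits 2.06%. In each replicate's own peaks the ratio was 5, 3.67 and 5.6. The word's adjusted p stayed above 0.05, so the difference is reported as one that missed the threshold. With windows of 100 bp to either side, or with the limit at 250 bp from a start, it passed.

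The best ranked of the 16 lay 647 bp from CG14762 on the side of Optix, an eye homeobox gene. It had a signal of 205, 154 and 131 in replicates 1, 2 and 3. The window at soti with 3 copies had 197, 103 and 140. Replicate 1 was highest at both. That between the HMG-box genes Sox21a and Sox21b had 111, 155 and 97.6, and that at Boot and Ctu1 had 121, 100.5 and 118. Upstream of bab2, a BTB factor of limb and ovary, the signal was 94.1, 108 and 161, and at Sid and snu it was 145, 100.05 and 86.9. In the list of replicate 1 these 6 ranked between 299 and 1196 of 3495. Peaks in all 3 replicates were held by 11 of the 16, beside 216 (66.1%) of all 327. CAACAA was also at 2 of the 16, beside 62 (19.0%) of all 327. Within 1000 bp of a start lay 7 of the 16, beside 48 (14.7%) of all 327.

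Su(Hw)'s core GCATACTTT was at 4 summits and in none of the flanks (exact McNemar p = 0.125, adjusted p = 0.438). These lay at ninaE, the major rhodopsin gene, at sbb, at CG10183 and between osp and CG15282, where the CTCF core was also present. All 4 were found in 2 replicates only, and the signal at ninaE was 64.4 and 66.4 in replicates 1 and 2. A match to a word is a description of the letters and not a measured site of CTCF or Su(Hw).

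**Figure D5:**
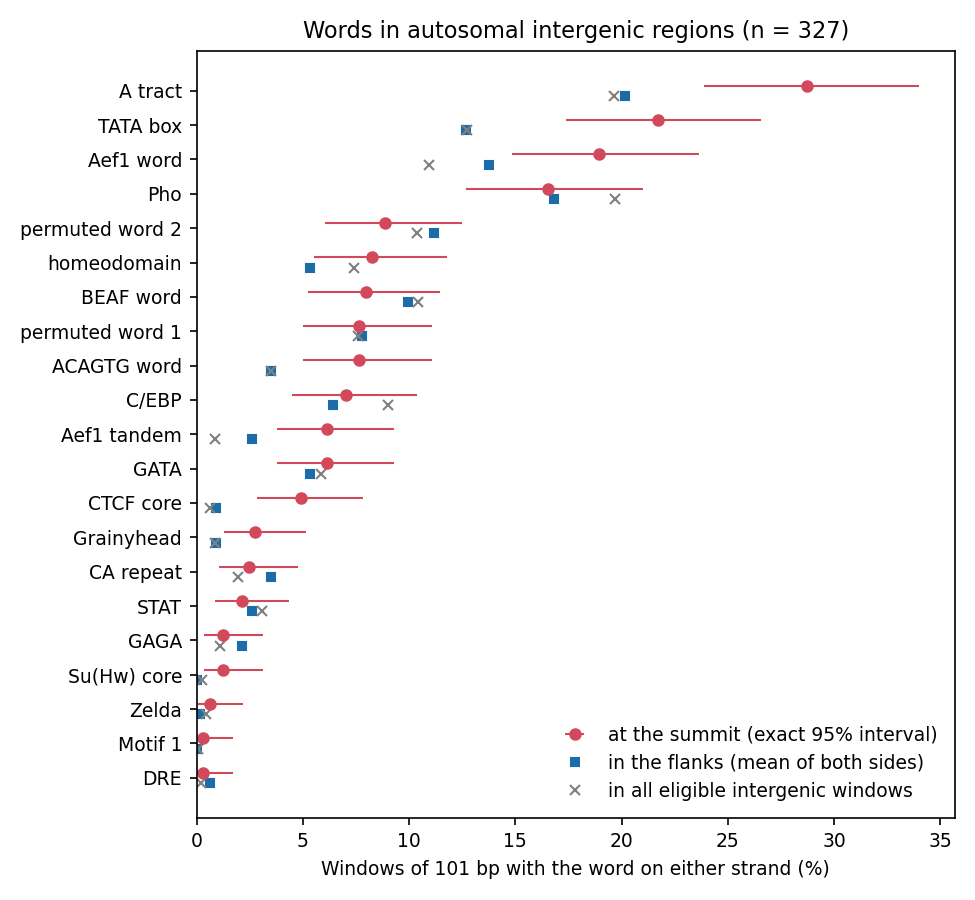
Share of windows (50 bp to either side of the centre) with each of 21 words on either strand (x axis, %) at the 327 summits (circles, exact 95% intervals), in the flanks (squares, mean of both sides) and in all eligible intergenic windows (crosses). The intervals of the A tract, TATA box, Aef1 word, ACAGTG word, Aef1 tandem, CTCF core, Grainyhead and Su(Hw) words lie right of the crosses, and no difference from the flanks passed an adjusted p of 0.05.

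The other words did not pass either. The TATA box word TATAAA was at 71 summits (21.7%), against 12.7% of the flanks (exact McNemar p = 0.0265, adjusted p = 0.23), and 12.7% of eligible windows held it. AAAAAA was at 94 (28.7%), against 20.2% of the flanks (exact McNemar p = 0.0328, adjusted p = 0.23), and 19.7% of eligible windows held it. ACAGTG was at 25 (7.65%), against 3.52% of the flanks, a ratio of 2.17 (exact McNemar p = 0.108, adjusted p = 0.438), and 3.50% of eligible windows held it. The GAGA factor's GAGAGAG was at 4 summits, the Zelda word CAGGTAG at 2 and the core promoter words DRE (TATCGATA) and Motif 1 (GGTCACACT) at 1 each. BEAF-32's CGATA was at 26 intergenic summits (7.95%), against 20.7% of promoter and 9.89% of genic summits. GCCAT, the core of the Polycomb group factor Pho, was at 54 (16.5%), against 16.8% of the flanks, and in 19.7% of eligible windows. The homeodomain core TAATTA was at 27 (8.26%), against 5.35% of the flanks, and in 7.43% of eligible windows. The C/EBP word TTGCNNAA was at 23 (7.03%), against 6.42% of the flanks, and in 8.99% of eligible windows. From GAGAGAG on, the words of this paragraph had an unadjusted p of 0.146 or more in the exact McNemar tests. So did the remaining words, for GATA factors, Grainyhead, Stat92E and a CA repeat.

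GC content was lower at the summit than in the flanks in every replicate. In each replicate's own intergenic peaks it averaged 35.2%, 34.8% and 36.2% at the summit in replicates 1, 2 and 3, against 41.1%, 41.5% and 41.5% in the flanks. The 2 sets of values did not overlap. The mean was 35.4% ± 0.743 at the summit and 41.4% ± 0.266 in the flanks, a difference of -5.95 ± 0.725 percentage points (SD, n = 3, two-sided exact sign-flip p = 0.25, the smallest that 3 replicates allow). Eligible windows had 40.8%. At the summits of merged regions, promoter regions had 34.9%, against 45.7% in their flanks, and genic regions 33.6%, against 41.8%. Intergenic regions had 35.1% against 41.2% in the same way, the smallest difference of these classes. The lower GC at the summit is thus not particular to intergenic regions. No correction for base composition was made in the word tests.

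All 2080 words of 6 bases were compared in the same way as the 21, and 3 of them (0.144%) passed an adjusted p of 0.05 over the family. ACTAAA was at 47 summits (14.4%), against 3.67% of the flanks, a ratio of 3.92 (exact McNemar adjusted p = 0.0109), and in 6.90% of eligible windows. TACTAA, which overlaps it, was at 28 (8.56%), against 1.53% of the flanks, a ratio of 5.6 (exact McNemar adjusted p = 0.0109), and in 3.99% of eligible windows. AATATA was at 88 (26.9%), against 11.5% of the flanks, a ratio of 2.35 (exact McNemar adjusted p = 0.0161), and in 12.3% of eligible windows. All 3 were higher at the summit and hold at most 1 G or C. The ratio of ACTAAA was 1.70 in genic and 1.89 in promoter regions. That of TACTAA was 2.33 in genic and 2.21 in promoter regions. For AATATA it was 2.05 in genic and 2.28 in promoter regions, so all 3 words had higher shares at those summits too. ACTAAA stood at 11.5% of genic and 9.43% of promoter summits, with 6.80% and 4.98% in their flanks. TACTAA stood at 6.87% and 6.52% of these summits, with 2.95% in the flanks of both classes. The lower flank shares of the intergenic regions, 3.67% and 1.53%, thus enter their higher ratios for these 2 words. The 3 words were picked by this comparison in the intergenic regions, and the classes were not tested against each other. Among the 2080 words CAACAA stood at place 290 by p and ACAGTG at place 186.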

How the data were processed

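The data are peak lists of 3 biological replicates, per the labels from embryos of 0 to 24 h on dm6. Each list thresholded on the IDR gives a peak signal made by the authors' peak caller and a deposited score from 830 to 1000, and the ranked lists hold the −log10 of the IDR, as deposited by the authors. Aligner and caller: not given in the sources used here. Read numbers behind each peak are unknown, so no interval rests on depth. The rates concern peak calls only, and intervals (exact Clopper-Pearson, 95%) cover counting error of regions.

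Peaks were merged and annotated with protein-coding genes of Ensembl release 115 (BDGP6.54, dm6 coordinates), and sequence came from the RefSeq genome of that build. Regions were ordered by rank fraction, averaged over the lists that hold them. Eligible sequence was tiled into 331396 windows of the length used at summits. Gaps lie between neighbouring protein-coding genes. Word tests were exact McNemar tests, class comparisons Fisher's exact tests, and replicate differences exact sign-flip permutation tests, all two-sided. Where a count was 0, a share of 3 counts was taken as its limit. Work was done in Python 3.11.15 with SciPy 1.17.1, pandas 2.3.3, numpy 2.4.6 and, for plots, matplotlib 3.10.9, and the word counts and merging were tested on simulated data.

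Members, words and gene lists were chosen with earlier results of these data known, ACAGTG and CAACAA among them. The naming rule covers the 12 best-ranked members with peaks in 3 replicates. It covers the 10 best-ranked with the tandem word too, and not all of those 10 are given here. Also covered are the best-ranked with the CTCF or Su(Hw) core (up to 6 each) or in a non-coding gene (8). The rest are the 5 farthest from a start, the 3 on each side of the 500 bp limit, the 5 gaps with most members and up to 4 members a gene list. The scyl region, other gaps with 5 members and other genes of short lists were named after their values were seen. Alternatives covered the replicates used, merging, the IDR, the distance to a start, non-coding genes, windows and flanks. Of the items this rule names, 1 gap and the regions in it are not reported here.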

Additional observations from a re-analysis of the deposited data

How the results depend on the processing

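The 327 regions became 231 to 274 when 1 replicate was left out, 216 with peaks required in 3 replicates, 218 at an IDR of 0.001 and 409 with a limit of 250 bp. The ratios to the flanks stayed above 1 in all 12 alternatives, at 1.07 to 1.51 for CAACAA and 1.5 to 4 for CAACAACAA, and only the tandem with flanks at 1000 bp passed an unadjusted 0.05 (ratio 4, exact McNemar p = 0.0146). The number of words called was 0 but for 2 with a limit of 250 bp (the CTCF core and TATAAA) and 2 with a window of 100 bp to either side (ACAGTG and the CTCF core). The GC difference was -6.69 to -5.49 points with 1 replicate left out, -7.10 with a limit of 1000 bp and -3.80 with the 100 bp window. The small differences between classes changed sign in several settings, each time with Fisher's exact adjusted p of 0.591 or more. CAACAA against genic regions ran from -0.53 to 4.27 points with 1 replicate left out and was -0.995 at 250 bp. Against promoter regions it ran from -3.11 to 0.33 and was 0.81 with a 25 bp window. The tandem against promoter regions ran from -2.12 to -0.42 with 1 replicate left out. It was -0.91 with 3 replicates required, -0.51 with 50% overlap, -0.60 at an IDR of 0.001, -0.31 at 1000 bp, -0.50 with non-coding genes counted, -0.39 with 25 bp windows and -1.25 with 100 bp windows. Against genic regions the tandem ran from -1.72 to 1.00 with 1 replicate left out and was -0.32, -0.59 and -0.63 with 3 replicates required, at 250 bp and with 100 bp windows. The causes were not tested. Shares per arm and per kind of gap moved by less than their intervals. No paired analysis was possible because there is 1 group, so no replicate has a partner in another; summits were set against their own flanks. Depth limits what weak peaks can show, and counts under 20 regions leave ratios uncertain.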
